A study of Mus musculus with 13 samples.

Results

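Hepatocytes, the epithelial cells that make up most of the liver's mass, were compared directly with hepatic stellate cells (HSC) that had spent 1 day in culture. The comparison took every array titled as hepatocytes and every array titled as HSC after 1 day, 3 against 2, which is 5 of the 13 arrays of the series. The remaining 8 arrays were 3 of Kupffer cells, 3 of liver sinusoidal endothelial cells (LSEC), and 1 each of HSC after 7 and 14 days. All cells came from the livers of naive C57BL/6 mice aged 6 to 10 weeks, with no transgene and no treatment of the animals named in the labels. Hepatocytes were measured directly after sorting, whereas the HSC were kept in DMEM with 10% FBS, so that every difference between these groups combines cell type with 1 day of culture, and these cannot be told apart. The array titles call the arrays biological replicates, but whether they came from separate animals or pools is not given in the sources used here, so p-values measure only the spread between these arrays, which may be technical. Their small number limits the precision.

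Hepatocytes carry out the metabolic and secretory work of the liver. They detoxify ammonia through the urea cycle, make bile acids, store and release glucose, and secrete most plasma proteins. Hepatic stellate cells lie in the space between hepatocytes and the sinusoidal endothelium, store vitamin A as retinyl esters in lipid droplets, and in injured liver or on plastic turn into contractile, matrix-producing cells that resemble myofibroblasts.

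Values are intensities on a linear scale, and a log2 difference is always the hepatocyte mean minus the 1-day HSC mean of log2(intensity + 83), so that positive values are higher in hepatocytes. The added 83 keeps noise at low intensities from producing wide differences and makes the difference of a weakly detected gene smaller than its ratio. A gene was called where limma's moderated test gave a Benjamini-Hochberg adjusted p under 0.05 over all 12081 genes tested and the difference was at least 1, that is a factor of 2. Of these 12081 genes, 1225 were called higher in hepatocytes (10.1%) and 1481 higher in 1-day HSC (12.3%), together 22.4%. The arrays of the groups did not overlap for 78.7% of all genes tested, so separation of 3 arrays from 2 was the usual state here and carries little weight for a single gene. The median difference over all genes was -0.08.

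The differences were wider on the hepatocyte side and more numerous on the HSC side. The median called difference was 1.83 among genes higher in hepatocytes and -1.45 among genes higher in HSC. Differences of at least 3 were found for 258 genes higher in hepatocytes and 139 higher in HSC, and differences of at least 4 for 80 and 44. A further 9375 genes were not called, and 6483 of them lay within 0.5 of equality. Among the genes called higher in hepatocytes, the mean was the highest of the 4 cell populations (hepatocytes, Kupffer cells, LSEC and 1-day HSC) in hepatocytes for 1092 (89.1%). Among those higher in 1-day HSC, HSC held the highest mean for 845 (57.1%), LSEC for 350 (23.6%) and Kupffer cells for 286 (19.3%). The highest mean thus lay outside the pair more often on the HSC side than on the hepatocyte side.

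**Figure D1:**
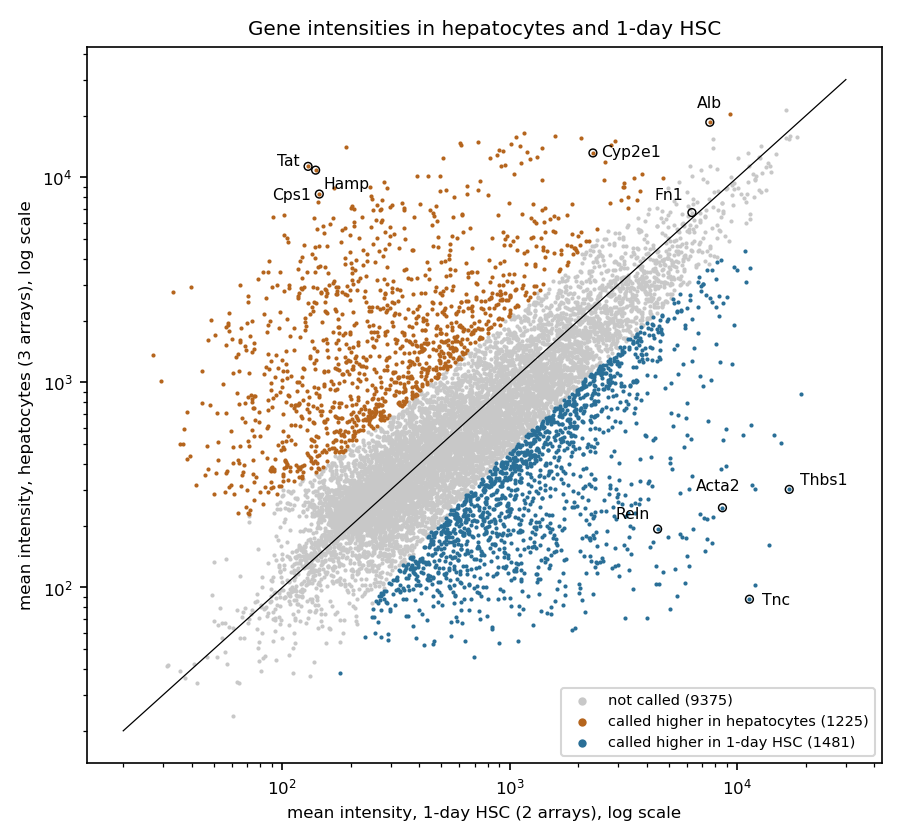
Mean intensity of every tested gene in 1-day HSC (horizontal, 2 arrays) and in hepatocytes (vertical, 3 arrays), both on log axes, with genes called higher in hepatocytes, higher in 1-day HSC or not called in separate colours. The 1225 genes called higher in hepatocytes lie above the diagonal, and the 1481 called higher in HSC lie below it.

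The labels were checked against defining markers. Tat, which breaks down tyrosine, read 10529.7, 11154 and 12266 on the hepatocyte arrays and 123 and 137 on the 1-day HSC arrays. Hamp, the iron hormone hepcidin, read 9853, 10966 and 11723 on the hepatocyte arrays and 183 and 97.3 on the 1-day HSC arrays. Both separated the groups without overlap, and both were at the lower reading also on the LSEC, Kupffer and later HSC arrays. In the other direction Acta2, smooth muscle actin and the classical marker of stellate cell activation, read 229, 241 and 265 on the hepatocyte arrays and 7461 and 9745 on the 1-day HSC arrays. Reln, a secreted glycoprotein made by stellate cells among liver cells, read 225, 195 and 158 on the hepatocyte arrays and 4331 and 4597 on the 1-day HSC arrays. Of 22 stellate cell markers, 21 could be tested and 15 were called higher in HSC, with none called higher in hepatocytes (median -2.25). Of 22 hepatocyte markers, all were called higher in hepatocytes (median 4.14), or 21 without HSC replicate 2, where Alb was not called (1.06, adjusted p = 0.061). Gfap, a stellate cell marker in rodents, was near the low end everywhere, at 114, 94.0 and 113 on the hepatocyte arrays and 111 and 110.4 on the 1-day HSC arrays, and was not tested.

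Hepatocyte transcripts were nevertheless measurable on the 1-day HSC arrays. The 22 hepatocyte markers summed to 233288, 244154 and 251961 on the hepatocyte arrays and to 28207 and 14819 on the HSC arrays, where 15 and 14 of them lay above the pooled median intensity of 224. The first HSC array was above the second for 19 of the 22. After longer culture the sum was 5015 at 7 days and 4758 at 14 days. Trf alone gave 2672 and 2484 of these sums, and it also read 7544 on average in Kupffer cells. The other 21 of the 22 were below both 1-day arrays on both later ones. The median marker read 5.24% of its hepatocyte level on the 1-day HSC arrays, from 1.15% for Tat to 40.8% for Alb. Among all genes called higher in hepatocytes, the first HSC array was above the second for 860 of 1225 (70.2%), compared with 47.3% of all genes tested. The fall of the markers in longer culture was not general among these 1225. Both later arrays were below both 1-day arrays for 415 of them and above both for 470. They were called through low 1-day readings, which favours later readings above those. The part of such transcripts in the differences reported here was not tested, and in bulk samples fewer cells of a type and less RNA per cell cannot be told apart.

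Markers of the other non-parenchymal cells stood higher on the HSC arrays than on the hepatocyte arrays. The 22 LSEC markers summed to 32288 and 29078 on the 1-day HSC arrays, against 5073 to 6696 on the hepatocyte arrays and 93914 to 132254 on the LSEC arrays, and 13 of them were called higher in HSC. The median LSEC marker read 14.5% of its LSEC level on the 1-day HSC arrays, from 6.16% for Cldn5 to 168% for Ehd3. The 18 Kupffer cell markers summed to 11079 and 14602 on the HSC arrays, 7986 to 9887 on the hepatocyte arrays and 150938 to 154725 on the Kupffer arrays, with 7 called higher in HSC and 1 higher in hepatocytes. The 7 became 3 when the test was made against a difference of 1 instead of 0. The LSEC sum was 17128 on the 7-day and 11985 on the 14-day HSC array. Much of it came from Eng and Ehd3, at 8531.5 and 3835 on the 7-day and 5112 and 1403 on the 14-day array. Of the smaller lists, 3 of 8 tested markers of portal fibroblasts and 1 of 4 of smooth muscle were called higher in HSC. Over all genes tested the share was 12.3%, and counts this small are not read as results about the lists. The 1 of smooth muscle was Mcam, which read 1791 on average in LSEC and 1058 in 1-day HSC. The smooth muscle count was 2 of 4 without hepatocyte replicate 2 or 3, and 3 of 4 without HSC replicate 1. None of 3 mesothelial markers and none of 3 lymphocyte markers were called in either direction, and 1 of 2 cholangiocyte markers, Sox9, was called higher in hepatocytes. Alas2, an erythroid enzyme, read 1313, 1658 and 1692 on the hepatocyte arrays and 181 and 134 on the HSC arrays. What these transcripts contribute to the genes described was not tested.

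**Figure D2:**
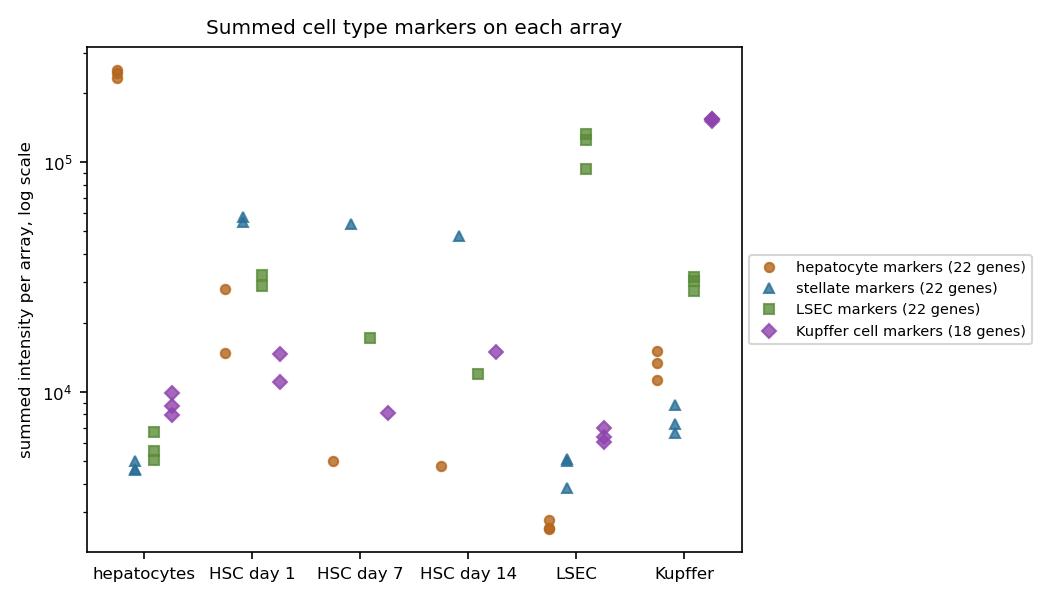
Summed intensity of the marker lists on each of the 13 arrays (log axis), grouped by cell population, with each point 1 array. Hepatocyte markers fall from 233288 or more on the hepatocyte arrays to 28207 and 14819 on the 1-day HSC arrays and to 5015 and 4758 after 7 and 14 days. Trf alone gives 2672 and 2484 of the sums after 7 and 14 days.

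The 12 widest differences on the hepatocyte side belonged to enzymes of amino acid, drug and sugar metabolism and to secreted proteins. Tat stood at the head with a log2 difference of 5.74 (SE 0.11, adjusted p = 5.1e-12), followed by Cyp2f2, a cytochrome P450 of the periportal zone, at 5.71, and Hamp at 5.64. Cyp2f2 read 13558, 14068 and 14357 on the hepatocyte arrays and 140.5 and 241 on the 1-day HSC arrays. Cps1, which makes carbamoyl phosphate at the entry of the urea cycle, read 8681, 7735 and 8463 on the hepatocyte arrays and 145 and 146 on the 1-day HSC arrays, a difference of 5.19 (SE 0.12, adjusted p = 1.5e-11). The hepatocyte readings of these genes differed little between arrays, and the HSC readings stayed near the intensity at which LSEC and Kupffer cells also read. Igfbp1, a secreted binder of insulin-like growth factors, differed by 5.16, Cdo1, which oxidises cysteine, by 5.15, and C9, the last component of the membrane attack complex, by 5.09. Tdo2, which opens the tryptophan ring, differed by 4.86, Mat1a, which makes S-adenosylmethionine in adult liver, by 4.79, and Fbp1, an enzyme of gluconeogenesis, by 4.78. Cyp2c70, which converts bile acids in mice, was uneven, at 3122, 7888 and 8126 on the hepatocyte arrays and 89.4 and 92.5 on the 1-day HSC arrays. Its first hepatocyte array lay below the other two but far above both HSC arrays, and the difference was 5.09 (SE 0.31, adjusted p = 2.3e-08). Ces3b, a carboxylesterase, differed by 4.85 and was also lowest on the first hepatocyte array. Among all 1225 genes called higher in hepatocytes, hepatocyte replicate 1 was the lowest of the 3 for 665 (54.3%), compared with 27.8% of all genes tested.

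The 12 widest differences on the HSC side were led by matrix and matricellular proteins. Tnc, tenascin C, read 92.6, 105 and 65.8 on the hepatocyte arrays and 10915 and 11697 on the 1-day HSC arrays, a difference of -6.07 (SE 0.25, adjusted p = 8.9e-10). Ankrd1, a nuclear ankyrin repeat protein and a standard target of the YAP and TAZ coactivators, read 108, 96.2 and 106 on the hepatocyte arrays and 11897 and 12128 on the 1-day HSC arrays, a difference of -6.02 (SE 0.10, adjusted p = 3e-12). Timp3, a matrix-bound inhibitor of metalloproteinases, read 156, 172 and 154 on the hepatocyte arrays and 12239.9 and 15280.3 on the 1-day HSC arrays, a difference of -5.82. In these genes the hepatocyte arrays were all at or below the pooled median, and both HSC arrays were in the upper part of the intensity range. Thbs1, thrombospondin 1, differed by -5.49, Postn, periostin, by -4.98, the proteoglycan Bgn, biglycan, by -4.98, and Sparc, osteonectin, by -4.88. Fstl1, a secreted glycoprotein, differed by -4.89 and Tagln, an actin-binding protein of smooth muscle, by -4.96. Others were Ptgs2, cyclooxygenase 2, at -4.99, Serpinb2, an inhibitor of plasminogen activators, at -4.99, and Robo2, a receptor for Slit guidance cues, at -4.99. Robo2 and Serpinb2 read 1051 and 959.5 on the 7-day array and 352 and 394 on the 14-day array, below both 1-day arrays. Tnc and Thbs1 stayed high, at 10910.4 and 16884 on the 7-day array. These later readings rest on 1 array each.

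**Figure D3:**
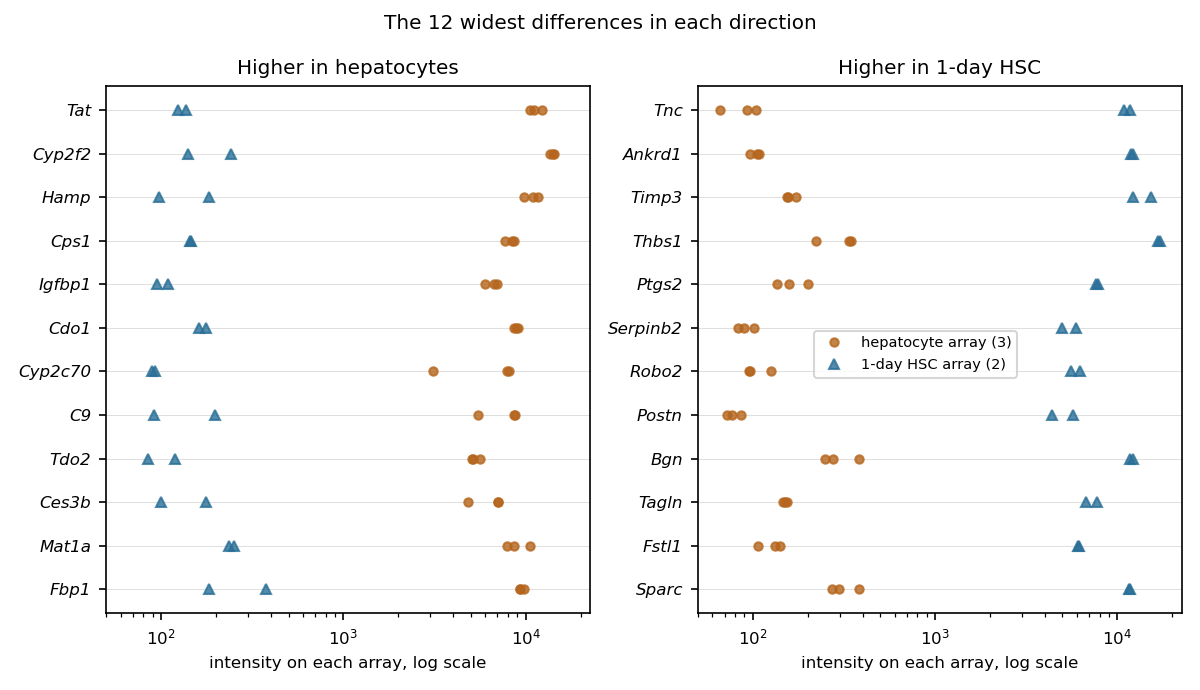
Intensity on each array (log axis) of the 12 genes with the widest called difference in each direction, circles for the 3 hepatocyte arrays and triangles for the 2 arrays of 1-day HSC. In every gene shown the groups are far apart, and Cyp2c70 has 1 hepatocyte array, at 3122, 7888 and 8126 in order of replicate, below the others.

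Of 42 tested genes of the urea cycle and amino acid breakdown, 39 were called higher in hepatocytes and none higher in HSC (median 2.71 against -0.08 over all genes). Besides Tat, Cps1, Cdo1, Tdo2 and Mat1a, Arg1, the arginase that releases urea, read 4548, 4494 and 5464 on the hepatocyte arrays and 225 and 138 on the 1-day HSC arrays, a difference of 4.23. Its mitochondrial relative Arg2 read 584, 489.6 and 238 on the hepatocyte arrays and 137 and 203 on the 1-day HSC arrays, a difference of 0.99 that lay just under the threshold and passed it without hepatocyte replicate 3 (1.30, adjusted p = 0.00023) or without HSC replicate 2 (1.18, adjusted p = 0.014). Glul, glutamine synthetase, which among hepatocytes is confined to those around the central vein, read 3555, 4663 and 4432 on the hepatocyte arrays and 2231 and 1909 on the 1-day HSC arrays and was not called (difference 0.99), although it passed without hepatocyte replicate 1 (1.11, adjusted p = 0.00021) or without HSC replicate 1 (1.10, adjusted p = 0.0015). Kupffer cells read 4890.1 on average for Glul.

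Drug metabolism showed the same direction. Of 48 tested cytochromes P450, conjugating enzymes and relatives, 43 were called higher in hepatocytes and 1 higher in HSC (median 3.45). Sult1d1, a sulfotransferase, read 2133, 3043 and 3063 on the hepatocyte arrays and 34.2 and 31.7 on the 1-day HSC arrays, a difference of 4.59 (SE 0.13, adjusted p = 3.9e-11), and Adh1, alcohol dehydrogenase, differed by 3.96. The exception was Cyp1b1, an extrahepatic P450 of mesenchymal cells, at 113, 109.8 and 102 on the hepatocyte arrays and 391 and 500.2 on the 1-day HSC arrays, a difference of -1.46 (SE 0.13, adjusted p = 7e-07). Cyp1b1 was higher still on the later HSC arrays, at 3780.5 and 2632. Gstp1 and Gstm2, glutathione transferases, were measured well above the pooled median in both groups and were not called (differences 0.82 and -0.65).

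Of 27 tested genes of bile acid synthesis and transport, 24 were called higher in hepatocytes and 1 higher in HSC (median 2.28). Cyp7a1, the rate-limiting enzyme of the classical route to bile acids, read 416, 466 and 625 on the hepatocyte arrays and 33.8 and 39.1 on the 1-day HSC arrays, a difference of 2.28 (SE 0.12, adjusted p = 7.7e-09). Cyp7b1 of the alternative route differed by 4.55, Slc27a5, which activates bile acids for conjugation, by 4.07, and Scp2, a peroxisomal thiolase and sterol carrier that completes the side chain, by 4.39. Abcc2, which exports conjugates into bile, read 2754, 2366 and 2314 on the hepatocyte arrays and 895 and 326 on the 1-day HSC arrays, so that its HSC arrays differed from each other as well as from hepatocytes, with a difference of 2.01 (SE 0.25, adjusted p = 1.8e-05). Nr1h4, the bile acid receptor FXR, read 353, 394 and 298 on the hepatocyte arrays and 380.3 and 703 on the 1-day HSC arrays, the groups overlapped, and it was not called. Atp8b1, a phospholipid flippase of the canalicular membrane, was the 1 gene higher in HSC, at 479.6, 562 and 552 on the hepatocyte arrays and 1934 and 2796 on the 1-day HSC arrays, a difference of -1.98 (SE 0.15, adjusted p = 1.8e-07).

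Genes of glucose metabolism differed by isoform. Of 34 tested genes, 16 were called higher in hepatocytes, 1 higher in HSC, and 17 were not called (median 0.80). G6pc, which frees glucose from its phosphate, read 5321, 3593 and 6260.0 on the hepatocyte arrays and 101 and 109 on the 1-day HSC arrays, a difference of 4.74 (SE 0.17, adjusted p = 3.1e-10), Fbp1 differed by 4.78 and Pck1, which starts gluconeogenesis, by 3.68. The liver forms of shared enzymes were higher in hepatocytes, with Khk, fructokinase, at 3.62, Pklr, liver pyruvate kinase, at 3.48, Slc2a2, the liver glucose transporter GLUT2, at 3.36, Gys2, liver glycogen synthase, at 3.32 and Pygl, liver glycogen phosphorylase, at 3.28. The widely expressed relatives were not called. Pkm read 1796, 1877 and 1796 on the hepatocyte arrays and 2748 and 2606 on the 1-day HSC arrays, Gys1 read 717, 648 and 848 on the hepatocyte arrays and 821 and 1124 on the 1-day HSC arrays, and Slc2a1, the transporter GLUT1, read 6324, 7215 and 9321 on the hepatocyte arrays and 6031 and 7314 on the 1-day HSC arrays, with differences of -0.53, -0.36 and 0.18. Hk1 and Aldoa were close to equality, at -0.06 and -0.07, with overlapping arrays. Hk2, an inducible hexokinase, was the 1 gene called higher in HSC (-1.15), a call that was lost without HSC replicate 2 (-0.98, adjusted p = 0.00018).

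Fatty acid and sterol metabolism gave smaller differences than amino acid or drug metabolism. Of 23 tested genes of fatty acid oxidation, 18 were called higher in hepatocytes and none higher in HSC (median 1.46). Slc27a2, a peroxisomal acyl-CoA synthetase, differed by 4.65, Fabp1, the liver fatty acid binder, by 4.27, Acaa2, the mitochondrial thiolase, by 3.26 and the nuclear receptor Ppara, which controls the pathway, by 2.43. Cpt1a, the gate of mitochondrial oxidation, read 1808, 1273 and 1884 on the hepatocyte arrays and 1125 and 828 on the 1-day HSC arrays and was not called (0.71). Of 22 tested genes of cholesterol synthesis, 15 were called higher in hepatocytes and none higher in HSC (median 1.44), among them Tm7sf2 at 3.49, Ebp at 2.35 and Msmo1 at 2.20, which act between lanosterol and cholesterol, and Insig2, the brake on SREBP processing, at 2.77. Of 33 genes of lipid synthesis and storage, 14 were called higher in hepatocytes and 2 higher in HSC (median 0.94), or none in the test against a difference of 1. Thrsp, a regulator of lipogenesis, differed by 3.61, Elovl2, an elongase of polyunsaturated fatty acids, by 3.58 and Cideb, which lipidates secreted lipoproteins, by 3.73. The 2 higher in HSC were Scd2, a stearoyl-CoA desaturase, and the fatty acid translocase Cd36. Cd36 read 299, 191 and 250.1 on the hepatocyte arrays and 492 and 1121 on the 1-day HSC arrays, and its call (-1.35) was lost without hepatocyte replicate 2 (-1.22, adjusted p = 0.093), hepatocyte replicate 3 (-1.36, adjusted p = 0.065) or HSC replicate 2 (-0.81, adjusted p = 0.29).

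**Figure D4:**
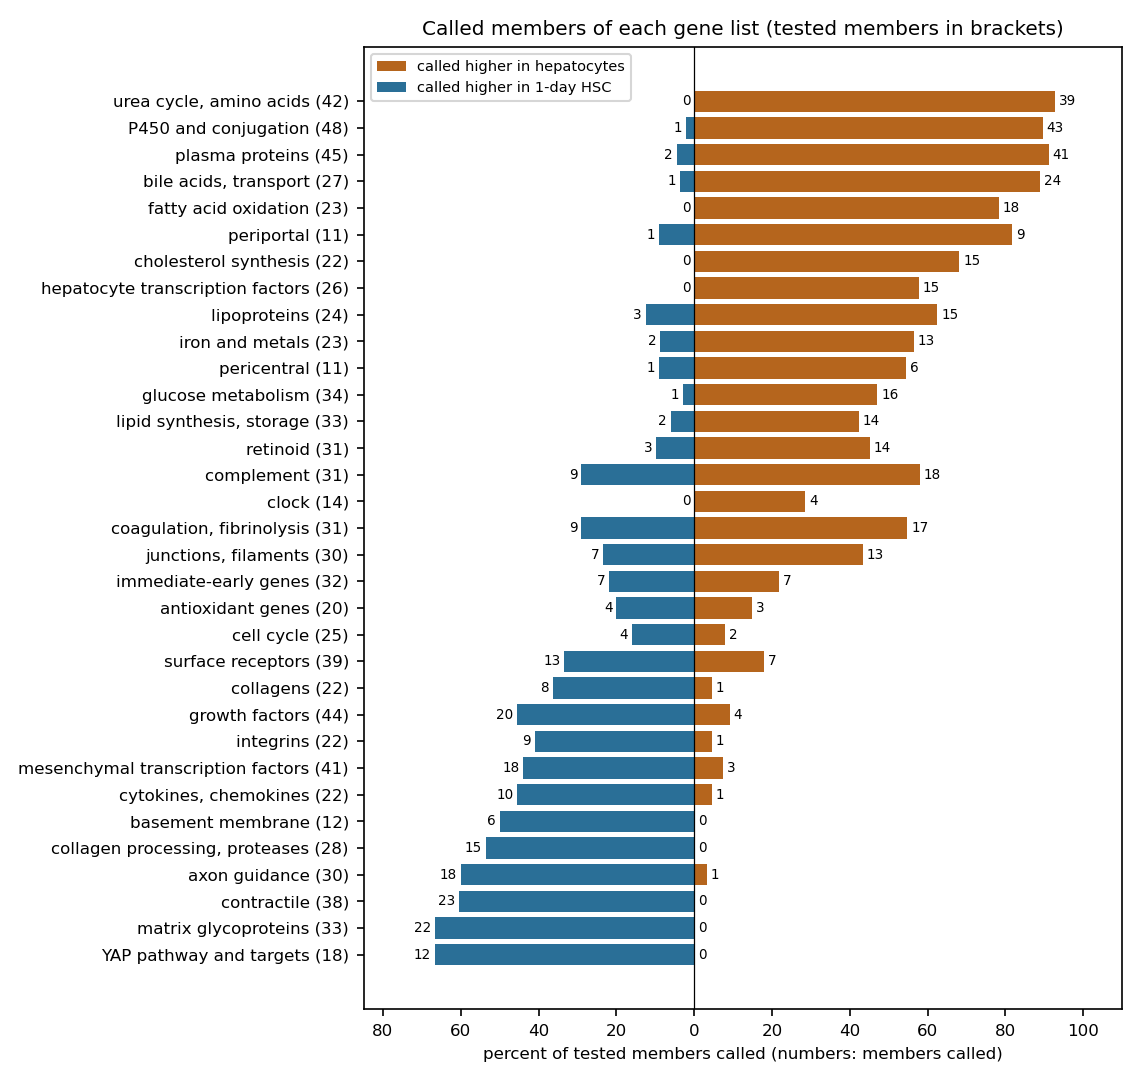
Percentage of the tested members of each gene list that were called higher in hepatocytes (to the right) or higher in 1-day HSC (to the left), with the number called at the bar's end and the number tested in brackets. Amino acid, drug and plasma protein genes lie almost wholly on the hepatocyte side, and matrix, contractile and guidance genes on the HSC side.

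Secreted plasma proteins were among the most one-sided genes. Of 45 tested, 41 were called higher in hepatocytes and 2 higher in HSC (median 3.73), or 1 in the test against a difference of 1. Vtn, vitronectin, read 11385, 12425 and 13313 on the hepatocyte arrays and 729.9 and 286 on the 1-day HSC arrays, a difference of 4.51 (SE 0.26, adjusted p = 1.6e-08), Agt, angiotensinogen, differed by 4.34, and the acute phase proteins Saa2 and Saa3 by 4.74 and 4.69. Alb, serum albumin, read 18474, 18674 and 18564 on the hepatocyte arrays and 8855 and 6285 on the 1-day HSC arrays. Its hepatocyte arrays were nearly identical and its HSC arrays were high as well, so the difference was 1.31 (SE 0.35, adjusted p = 0.0053), and the call was lost without HSC replicate 2 (1.06, adjusted p = 0.061). The SE also holds the spread of the Kupffer arrays (mean 2231, SD 1175). On the 7-day and 14-day HSC arrays Alb read 114 and 113. The 2 plasma proteins higher in HSC were the growth factor binders Igfbp7, at 484, 418 and 610.4 on the hepatocyte arrays and 15386 and 15627 on the 1-day HSC arrays, and Igfbp3, at 356, 309 and 270.3 on the hepatocyte arrays and 887 and 938 on the 1-day HSC arrays. Igfbp7 was the wider of these (-4.74 against -1.34), and LSEC also read high for it (12846 on average).

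The complement and coagulation systems divided between the populations. Of 31 tested complement genes, 18 were called higher in hepatocytes and 9 higher in HSC (median 1.88), and the 9 became 5 with the pooled median as the added value and 4 in the test against a difference of 1. The terminal components C9, C8b and Hc, which encodes complement C5, differed by 5.09, 4.68 and 4.6, and Cfi, the protease that inactivates C3b, by 4.30. On the HSC side were the receptors C3ar1, at -2.80, and C5ar1, at -1.39, the lectin pathway protease Masp1, at -1.55, and the terminal component C7. C7 read 61.7, 46.3 and 57.0 on the hepatocyte arrays and 451 and 475 on the 1-day HSC arrays, a difference of -1.99 (SE 0.077, adjusted p = 4.8e-10), and it was the only 1 of the named terminal components on that side. C3ar1 read 8935 on average in Kupffer cells against 1612 in 1-day HSC. Kupffer markers were present on the HSC arrays as given above, and their part in the receptor readings was not tested.

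Of 31 tested genes of coagulation and fibrinolysis, 17 were called higher in hepatocytes and 9 higher in HSC (median 1.49). Circulating factors were on the hepatocyte side, such as F2, prothrombin, at 4.61, Fgg, a fibrinogen chain, at 4.51, Plg, plasminogen, at 4.26 and F9 at 3.98. Among the genes called higher in HSC, F3, tissue factor, which starts coagulation, read 462, 445 and 394 on the hepatocyte arrays and 3938 and 4421 on the 1-day HSC arrays, a difference of -3.04 (SE 0.12, adjusted p = 4.8e-10). Thbd, thrombomodulin, which turns thrombin toward protein C, differed by -3.96, Tfpi, the inhibitor of the tissue factor pathway, by -3.06, and Serpinb2 by -4.99. Not all inhibitors were on that side, since Serpinc1, antithrombin, which was picked after its value was seen, differed by 3.82. F2r, the thrombin receptor PAR1, read 1513, 1509 and 1497 on the hepatocyte arrays and 1928 and 1778 on the 1-day HSC arrays and was not called.

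Of 24 tested apolipoproteins and lipoprotein genes, 15 were called higher in hepatocytes and 3 higher in HSC (median 2.87). Apoh differed by 4.11, Apoa1 of high-density lipoprotein by 3.86 and Apob, the scaffold of very-low-density lipoprotein, by 3.26. Apob read 4696, 4795 and 4430.3 on the hepatocyte arrays and 689.5 and 233 on the 1-day HSC arrays. The 3 higher in HSC were Lpl, lipoprotein lipase, at -2.0, Lrp8, a receptor for apolipoprotein E and reelin, at -1.86, and the phospholipid transfer protein Pltp, at -1.37. Apoe read 15296, 14629 and 16395 on the hepatocyte arrays and 7312 and 8282 on the 1-day HSC arrays, high in both groups, and was not called (0.98), but passed without hepatocyte replicate 2 (1.02, adjusted p = 1.2e-05) or HSC replicate 2 (1.07, adjusted p = 2.3e-05).

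Of 23 tested genes of iron and metal handling, 13 were called higher in hepatocytes and 2 higher in HSC (median 1.25). Besides Hamp, Tfr2, the iron sensor of hepatocytes, differed by 3.08, Trf, transferrin, by 3.0 and Steap4, a metalloreductase, by 2.78. The 2 higher in HSC were Tfrc, the uptake receptor for transferrin, at 371, 535 and 634 on the hepatocyte arrays and 1598 and 1981 on the 1-day HSC arrays, and Bmp6, the signal that raises hepcidin, at 390.1, 275 and 367 on the hepatocyte arrays and 1512 and 1326 on the 1-day HSC arrays. Bmp6 read 5642 on average in LSEC, above 1-day HSC.

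Of 26 tested transcription factors of the hepatocyte program, 15 were called higher in hepatocytes and none higher in HSC (median 1.15). Hnf4a, the nuclear receptor that maintains hepatocyte identity, read 5277, 4329 and 4534 on the hepatocyte arrays and 354 and 232 on the 1-day HSC arrays, a difference of 3.69 (SE 0.13, adjusted p = 2.9e-10). Mlxipl, the carbohydrate-response factor ChREBP, differed by 2.81, Ppara by 2.43 and Foxa3 by 2.24. Foxa2, a pioneer factor, read 412, 395 and 363 on the hepatocyte arrays and 192 and 169 on the 1-day HSC arrays and was not called (0.84).

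Promoter sequences were searched for letters that such factors are known to bind, because the genes above moved together. Windows ran from 250 bases before to 50 after the annotated start of each RefSeq transcript on GRCm38.p6, 300 bases in all, and 9690 tested genes had an entry. The HNF1 letters GTTAATNAT, searched on both strands, occurred in 29 of 1226 windows of genes called higher in hepatocytes (2.37%), 2 of 1526 windows of genes called higher in HSC (0.131%), 0.801% of all windows and 0.503% of windows of tested genes. The HNF4 letters CAAAGTCCA, also on both strands, occurred in 18 (1.47%) and 5 (0.328%) of the same windows in 0.475% of all and in 0.52% of those of tested genes. The shares are descriptions with no test, genes can have several windows, and a match is not a binding site. The 250 bases before the start are shown for 3 named hepatocyte genes, picked after their matches were seen, 5′ to 3′ on the gene's strand with the match in capitals.
Alb, chr5:90460620-90460869, plus strand, HNF1 letters from position -32: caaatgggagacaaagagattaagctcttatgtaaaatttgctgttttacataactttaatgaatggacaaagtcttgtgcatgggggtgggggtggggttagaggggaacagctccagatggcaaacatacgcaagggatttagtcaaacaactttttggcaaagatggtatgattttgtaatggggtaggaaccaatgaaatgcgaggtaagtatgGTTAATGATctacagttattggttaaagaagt
Igfbp1, chr11:7197537-7197786, plus strand, HNF1 letters on the opposite strand from position -59: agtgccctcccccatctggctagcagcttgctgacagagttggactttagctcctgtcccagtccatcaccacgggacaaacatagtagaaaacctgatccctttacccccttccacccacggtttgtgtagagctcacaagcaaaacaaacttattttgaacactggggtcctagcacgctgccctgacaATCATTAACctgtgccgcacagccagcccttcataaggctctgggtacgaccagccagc
Cyp2c70, chr19:40187287-40187536, minus strand, HNF4 letters from position -64: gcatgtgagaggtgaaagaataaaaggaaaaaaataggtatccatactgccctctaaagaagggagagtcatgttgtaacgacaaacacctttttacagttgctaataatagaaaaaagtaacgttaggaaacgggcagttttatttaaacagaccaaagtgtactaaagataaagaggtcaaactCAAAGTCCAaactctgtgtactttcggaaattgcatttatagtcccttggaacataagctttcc
All 3 matches lie within 100 bases of the start, and the differences of these genes were 1.31 for Alb, 5.16 for Igfbp1 and 5.09 for Cyp2c70.

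Hepatocytes differ along the axis from the portal to the central vein, and zonal genes were examined on both groups. Of 11 tested periportal genes, 9 were called higher in hepatocytes and 1 higher in HSC (median 3.37), and of 11 pericentral genes 6 and 1 (median 2.47). In the test against a difference of 1 no gene of either list was called higher in HSC. The exceptions were Ctsc, a lysosomal protease (-1.38), and Slc1a4, an amino acid exchanger (-1.48). Ctsc read 13639.7 on average in Kupffer cells. The HSC reading as a share of the hepatocyte reading was 1.36% for Cyp2f2, 1.75% for Cps1, 3.09% for Hsd17b13 and 3.75% for Arg1 on the periportal side, but 11.5% for Uroc1, which breaks down histidine. On the pericentral side it was 5.24% for Cyp2c50, 5.89% for Gulo, 9.81% for Cyp1a2 and 17.6% for Cyp2e1. Among members called higher in hepatocytes the lists therefore overlapped in this share, although the lowest shares were periportal. For a gene near background the share depends on its hepatocyte level. Uroc1 read 122 on average in 1-day HSC, below its means in LSEC (138) and Kupffer cells (145). Cyp2e1 read 2320 on average in 1-day HSC, against 85.2 in LSEC and 139 in Kupffer cells. The overlap in shares is therefore not read as a result about the zones. Uroc1 and Cyp2e1 were picked after their values were seen, as the highest among those called members. The share was taken for them alone, which leaves out genes nearer equality, such as Aldh1b1 (0.83) and Glul (0.99). Cyp1a2 read 2904, 2800.2 and 3671 on the hepatocyte arrays and 443 and 170.2 on the 1-day HSC arrays and Hsd17b13, a lipid droplet enzyme, read 2939, 2940.1 and 2840.4 on the hepatocyte arrays and 84.3 and 95.3 on the 1-day HSC arrays.

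Turning to HSC, the named stellate cell markers varied in width. Cxcl12, a chemokine of mesenchymal cells, read 198, 211 and 253 on the hepatocyte arrays and 8069 and 7495 on the 1-day HSC arrays, a difference of -4.70. Pdgfrb, the receptor through which platelet-derived growth factor drives stellate cell division, differed by -4.07, Reln by -4.05, Des, desmin, by -3.81 and Hgf, hepatocyte growth factor, by -3.01. Acta2 differed by -4.72 (SE 0.13, adjusted p = 4.2e-11). Lrat, which esterifies retinol for storage and marks stellate cells, read 95.8, 87.1 and 95.5 on the hepatocyte arrays and 257 and 353 on the 1-day HSC arrays, a difference of -1.13 whose call was lost without HSC replicate 2 (-0.95, adjusted p = 0.0016). Acta2 was higher on the later HSC arrays (15224 and 14597) and Reln lower (2270.0 and 277).

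Matrix glycoproteins and proteoglycans were the most HSC-sided of the matrix lists. Of 33 tested, 22 were called higher in HSC and none higher in hepatocytes (median -2.12). The 4 widest were Tnc, Thbs1, Postn and Bgn, and Ccn2, connective tissue growth factor, read 1209.6, 772 and 649 on the hepatocyte arrays and 18754 and 19321 on the 1-day HSC arrays, a difference of -4.36 (SE 0.19, adjusted p = 1e-09). Mfap4, a microfibril protein, was not called, at -0.84. Of 28 tested enzymes and inhibitors of collagen processing and matrix turnover, 15 were called higher in HSC and none higher in hepatocytes (median -1.04). Timp1, an inhibitor of metalloproteinases linked to fibrosis, read 231, 317 and 285 on the hepatocyte arrays and 2794 and 3129 on the 1-day HSC arrays, a difference of -3.08 (SE 0.17, adjusted p = 8.9e-09). Mmp2, gelatinase A, differed by -3.44 and Serpinh1, the collagen chaperone HSP47, by -3.12. Lox, which crosslinks collagen, read 827, 249 and 211 on the hepatocyte arrays and 5062 and 5068 on the 1-day HSC arrays, with 1 hepatocyte array above the other two and all below the HSC arrays (-3.53).

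Collagens themselves differed less. Of 22 tested, 8 were called higher in HSC and 1 higher in hepatocytes (median -0.23), and the 8 became 5 with the pooled median as the added value or in the test against a difference of 1, where the 1 became none. Col1a1, the main chain of fibrillar type I collagen, read 354, 407 and 413 on the hepatocyte arrays and 935 and 905 on the 1-day HSC arrays, a difference of -1.08 (SE 0.081, adjusted p = 1.8e-07), and read 6807 and 11780.1 on the 7-day and 14-day arrays, 1 array each. Col14a1, a fibril-associated collagen, differed by -2.53, and the basement membrane chains Col4a2 and Col4a1 by -1.93 and -1.69. Col14a1 read 222, 261 and 262 on the hepatocyte arrays and 1212 and 2750.0 on the 1-day HSC arrays, so its HSC arrays were unequal. Col18a1, the source of endostatin, was the 1 collagen higher in hepatocytes, at 572, 652 and 829.8 on the hepatocyte arrays and 256 and 249.8 on the 1-day HSC arrays, a difference of 1.18. Of 12 tested basement membrane genes, 6 were called higher in HSC and none higher in hepatocytes (median -1.01), among them Lamb1, a laminin chain, at -2.64, Hspg2, perlecan, at -2.29 and Nid1, nidogen 1, at -2.26. Sparc, Col4a1, Col4a2 and Hspg2 were also high in LSEC, at 12802, 1677, 1765 and 3436 on average.

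Contractile and cytoskeletal genes lay on the HSC side after only 1 day of culture. Of 38 tested, 23 were called higher in HSC and none higher in hepatocytes (median -1.44). After Acta2 and Tagln, Cnn2, calponin 2, read 114, 76.9 and 121 on the hepatocyte arrays and 4817 and 3982 on the 1-day HSC arrays, a difference of -4.58, and Fhl1, a LIM protein of muscle, read 182, 176 and 191 on the hepatocyte arrays and 4093 and 7118 on the 1-day HSC arrays, a difference of -4.37. The late smooth muscle genes were not called. Actg2, enteric smooth muscle actin, read 135, 155 and 148 on the hepatocyte arrays and 341 and 408 on the 1-day HSC arrays and Myh11, smooth muscle myosin, 157, 143 and 158 on the hepatocyte arrays and 287 and 457 on the 1-day HSC arrays. Actg2 lay just under the threshold and Myh11 further under it (-1.0 and -0.92), and both passed without HSC replicate 1 (-1.10, adjusted p = 9.7e-06 and -1.20, adjusted p = 3.8e-06), and Actg2 also without hepatocyte replicate 2 (-1.02, adjusted p = 9.2e-06) or 3 (-1.0, adjusted p = 7.2e-06). Their 7-day readings were 4906 and 2824, above every 1-day array.

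Of 18 tested genes of the pathway of YAP and TAZ, the coactivators that respond to stiffness and spreading, 12 were called higher in HSC and none higher in hepatocytes (median -1.5). The list holds their targets and also Yap1, Wwtr1, which encodes TAZ, and their partner Tead1. Of these 3, Tead1 was among the 12. The targets called higher in HSC included Ankrd1, the receptor tyrosine kinase Axl (-4.48), Ccn2 (-4.36) and F3 (-3.04). Axl read 8203 on average in Kupffer cells, above 1-day HSC (5696), and Ccn2 read 9198 in LSEC. Ankrd1 read 437 in LSEC and 128 in Kupffer cells, and F3 read 141 and 170. Ccn2 was above the pooled median in hepatocytes too, and its first hepatocyte array was the highest of the 3. Amotl2, a feedback inhibitor of YAP, read 506, 498 and 351 on the hepatocyte arrays and 817 and 743 on the 1-day HSC arrays and was not called (-0.70). Of 22 tested integrins and adhesion adaptors, 9 were called higher in HSC and 1 higher in hepatocytes (median -0.88), and the 1 became 2 without HSC replicate 1 and none in the test against a difference of 1. Itga9 and Itga5, receptors for tenascin and fibronectin, differed by -3.75 and -3.0, and Parva, an adaptor of focal adhesions, by -2.16. Itga5 was the most even of these, at 670.1, 677 and 666 on the hepatocyte arrays and 5958 and 5966 on the 1-day HSC arrays. Itga9 read 6891 on average in Kupffer cells, above 1-day HSC (3185). Lims2, an adaptor of integrin-linked kinase, was higher in hepatocytes (1.26).

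Of 41 tested transcription factors of mesenchymal cells, 18 were called higher in HSC and 3 higher in hepatocytes (median -0.71). Foxf1, a forkhead factor of visceral mesoderm, read 132, 117 and 123 on the hepatocyte arrays and 5257 and 5436 on the 1-day HSC arrays, a difference of -4.72 (SE 0.15, adjusted p = 9.4e-11). Tbx20, a T-box factor known from the heart, read 78.3, 77.0 and 72.5 on the hepatocyte arrays and 2057 and 2207 on the 1-day HSC arrays, a difference of -3.80. Zeb2, a repressor of epithelial genes, differed by -3.18 and Gli3, an effector of hedgehog signalling, by -2.88. Foxf1, Tbx20 and Gli3 were low in LSEC and Kupffer cells, whereas Zeb2 was high in both, at 1954 and 5345 on average. The 3 higher in hepatocytes were Bhlhe41 (2.14) and Bhlhe40 (1.76), repressors tied to the clock, and Sox9 (2.11), a factor of bile ducts and of hepatocytes near them. Sox9 read 1294, 1840.5 and 2514 on the hepatocyte arrays and 395 and 324 on the 1-day HSC arrays.

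The promoter windows were also searched for the CArG box, the site of serum response factor, and for the MCAT letters CATTCC bound by TEAD factors, the partners of YAP, again on both strands. The CArG box occurred in 30 of 1526 windows of genes called higher in HSC (1.97%), 19 of 1226 of genes called higher in hepatocytes (1.55%), 1.63% of all windows and 1.36% of windows of tested genes. CATTCC, which is short, occurred in 203 (13.3%), 171 (13.9%), 14.7% and 12.2% of the same sets. The differences between these shares were not tested. Shown are the 250 bases before the start of 3 named genes on the HSC side, also picked after their matches were seen.
Cnn2, chr10:79988350-79988599, plus strand, CArG box from position -56: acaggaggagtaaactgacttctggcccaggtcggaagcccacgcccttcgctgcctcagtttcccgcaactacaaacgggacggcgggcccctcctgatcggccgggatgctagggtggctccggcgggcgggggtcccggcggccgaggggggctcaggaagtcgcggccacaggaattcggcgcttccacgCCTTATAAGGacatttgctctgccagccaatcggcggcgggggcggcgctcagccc
Fhl1, chrX:56779433-56779682, plus strand, CArG box from position -102: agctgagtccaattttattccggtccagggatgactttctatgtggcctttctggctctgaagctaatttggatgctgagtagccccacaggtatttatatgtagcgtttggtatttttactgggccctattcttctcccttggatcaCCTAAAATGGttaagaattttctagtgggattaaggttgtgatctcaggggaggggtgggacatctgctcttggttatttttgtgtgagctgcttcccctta
Ankrd1, chr19:36119845-36120094, minus strand, CATTCC on the opposite strand from positions -210 and -123: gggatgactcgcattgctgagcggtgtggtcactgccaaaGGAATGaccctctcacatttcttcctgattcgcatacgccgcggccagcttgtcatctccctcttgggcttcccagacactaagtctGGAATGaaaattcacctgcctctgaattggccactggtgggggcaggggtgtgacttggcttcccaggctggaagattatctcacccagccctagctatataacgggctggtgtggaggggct
Cnn2 and Fhl1 hold 1 CArG match each and Ankrd1 holds 2 CATTCC matches in this window.

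Growth factors and their modulators were mostly on the HSC side. Of 44 tested, 20 were called higher in HSC and 4 higher in hepatocytes (median -0.80), and the 4 became 2 with the pooled median as the added value or in the test against a difference of 1. Bmp10, a bone morphogenetic protein, read 69.2, 71.2 and 71.8 on the hepatocyte arrays and 2852 and 5207 on the 1-day HSC arrays, a difference of -4.68 (SE 0.17, adjusted p = 3.6e-10), and 457 on the 14-day array. Ereg, epiregulin, a ligand of the epidermal growth factor receptor, read 112, 99.4 and 103 on the hepatocyte arrays and 3926 and 5104 on the 1-day HSC arrays, a difference of -4.6. Inhba, the activin A chain, read 233, 218 and 206 on the hepatocyte arrays and 7026 and 7182 on the 1-day HSC arrays, a difference of -4.57. All 3 lay near or below the pooled median on the hepatocyte arrays. Rspo3, an enhancer of Wnt signalling, differed by -3.59, and Hgf by -3.01. On the hepatocyte side were Igf1, insulin-like growth factor 1, at 2.13, Inhbc, a liver activin chain, at 1.38, and Fst, follistatin, which binds activin, at 1.96. Fst read 1667, 2729 and 2527 on the hepatocyte arrays and 549 and 490.0 on the 1-day HSC arrays.

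Of 22 tested cytokines and chemokines, 10 were called higher in HSC and 1 higher in hepatocytes (median -0.71), and the 1 became 2 without HSC replicate 2 or with an added value of 16. After Cxcl12, Tnfrsf11b, the decoy receptor osteoprotegerin, differed by -4.55, Csf1, the growth factor of macrophages, by -4.21 and Cxcl16, a membrane-bound chemokine, by -2.56. Csf1 read 382, 387 and 368 on the hepatocyte arrays and 8255 and 8705 on the 1-day HSC arrays. Cxcl9, an interferon-induced chemokine, was higher in hepatocytes, at 2152, 3118 and 2835 on the hepatocyte arrays and 185 and 194 on the 1-day HSC arrays, a difference of 3.34. Cxcl2 read 1003, 1863 and 1165 on the hepatocyte arrays and 2221 and 2118 on the 1-day HSC arrays and was not called.

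Genes known from axon guidance were mostly on the HSC side. Of 30 tested, 18 were called higher in HSC and 1 higher in hepatocytes (median -1.40). Sema6d, a transmembrane semaphorin, read 146, 159 and 210.0 on the hepatocyte arrays and 7056 and 7700.2 on the 1-day HSC arrays, a difference of -4.88 (SE 0.20, adjusted p = 8.1e-10), Sema3d, a secreted one, differed by -3.75, and Robo2 and Reln were given above. Sema3d was low in LSEC and Kupffer cells (94.6 and 65.3 on average), while Sema6d read 7831 in Kupffer cells. Efna1, an ephrin ligand, was the 1 gene higher in hepatocytes, at 2868, 3004 and 3588 on the hepatocyte arrays and 287 and 237 on the 1-day HSC arrays, a difference of 3.23.

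Of 39 tested surface receptors, 13 were called higher in HSC and 7 higher in hepatocytes (median -0.49), and the 7 became 4 in the test against a difference of 1. S1pr3, a sphingosine 1-phosphate receptor, read 205, 221 and 219 on the hepatocyte arrays and 6729 and 7995 on the 1-day HSC arrays, a difference of -4.64 (SE 0.13, adjusted p = 3.3e-11), Ddr2, a collagen receptor, differed by -4.39, and Axl by -4.48. S1pr3 was low in LSEC and Kupffer cells (252 and 157 on average) and read 233 on the 14-day array. On the hepatocyte side were both chains of the asialoglycoprotein receptor, Asgr2 at 3.42 and Asgr1 at 3.24, and Gcgr, the glucagon receptor, at 2.26. Insr and Egfr were measured well in both groups and were not called (0.90 and 0.56).

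Cell junction and filament genes were divided, with 13 of 30 called higher in hepatocytes and 7 higher in HSC (median 0.44). Krt18, a keratin of simple epithelia, read 14711, 14799.5 and 14968 on the hepatocyte arrays and 1015 and 431 on the 1-day HSC arrays, and Vim, vimentin, read 510.0, 453 and 699.7 on the hepatocyte arrays and 14718 and 14171 on the 1-day HSC arrays. Their differences were 4.31 and -4.53. Cldn1, a tight junction protein, read 1288, 2225 and 2336 on the hepatocyte arrays and 58.6 and 56.7 on the 1-day HSC arrays, a difference of 3.81, and Nes, nestin, read 98.5, 110.4 and 134 on the hepatocyte arrays and 2855 and 3168 on the 1-day HSC arrays, a difference of -3.97. Vim was also high in LSEC and Kupffer cells, at 13411 and 6639 on average. Nectin1 was not called (-0.59).

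Opposed behaviour within families was counted over 30 pairs of isozymes or related proteins. Both members were tested in 23 pairs, and in 12 of them the first was called higher in hepatocytes and the second in HSC. The pairs were chosen with earlier results of these data known and with the hepatocyte side set first. The count is therefore a description of chosen pairs and no measure of how often families are opposed. Over all genes tested 10.1% and 12.3% were called in these directions. The gap junction proteins were Gjb1, connexin 32, at 1199.6, 1039 and 818 on the hepatocyte arrays and 180.1 and 146 on the 1-day HSC arrays, and Gja1, connexin 43, at 199.7, 203 and 248 on the hepatocyte arrays and 3086 and 2775 on the 1-day HSC arrays. The cadherins were Cdh1, E-cadherin, at 3025, 3044 and 3137 on the hepatocyte arrays and 163 and 173 on the 1-day HSC arrays, and Cdh11, a cadherin of mesenchyme, at 94.2, 104 and 96.6 on the hepatocyte arrays and 352 and 396 on the 1-day HSC arrays. The group differences of the 4 genes were 2.15, -3.33, 3.65 and -1.33. The desaturases Scd1 and Scd2 differed by 2.15 and -1.36, the cationic amino acid transporters Slc7a2 and Slc7a1 by 2.0 and -2.83, the exporters Abcc2 and Abcc1 by 2.01 and -2.93, and the exporters Abcc6 and Abcc4 by 1.36 and -2.26. Among receptors, Fgfr4, the receptor of hepatocytes for a gut hormone that restrains bile acid synthesis, and Fgfr1 differed by 1.47 and -1.75. In ketone metabolism Bdh1, which makes the ketone body exported by the liver, differed by 1.35 and Oxct1, which is needed to use it, by -1.46. Oxct1 read 89.2, 98.1 and 94.8 on the hepatocyte arrays and 379.6 and 431 on the 1-day HSC arrays. The remaining opposed pairs were Dpys and Dpysl3, Krt18 and Vim, Krt8 and Des, and Igfbp1 and Igfbp3. Several pairs were not opposed. Fabp1 and Fabp5 were both called higher in hepatocytes (4.27 and 1.70), and Pparg, set beside Ppara, read 473, 366 and 380.3 on the hepatocyte arrays and 357 and 354 on the 1-day HSC arrays.

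**Figure D5:**
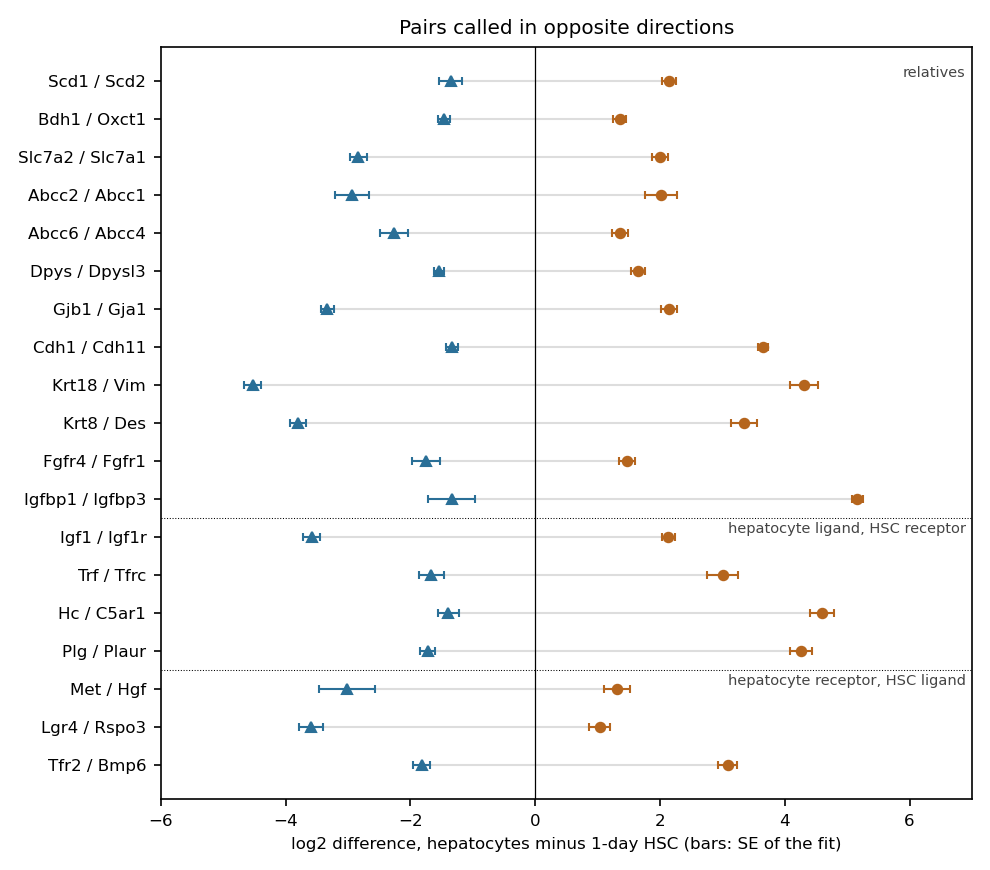
Log2 difference, hepatocytes minus 1-day HSC, of both members of each opposed pair, with the SE of the fit as bars. In each pair the first gene lies at 1 or more to the right of 0 and the second at 1 or more to its left.

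Ligands and receptors that could connect the cell types were paired in the same way, again with earlier results known, so these counts too only describe chosen pairs. Of 8 tested pairs with a hepatocyte ligand and an HSC receptor, 4 were opposed. Igf1 read 4284, 4789 and 4894 on the hepatocyte arrays and 923 and 1074 on the 1-day HSC arrays, and its receptor Igf1r read 119.9, 108 and 173 on the hepatocyte arrays and 2351 and 2634 on the 1-day HSC arrays. The differences were 2.13 and -3.58, and Igf1 was also high in Kupffer cells (5406 on average). The other 3 were Trf and Tfrc (3.0 and -1.67), Hc and C5ar1 (4.6 and -1.39), and Plg and Plaur, the urokinase receptor that focuses plasminogen activation (4.26 and -1.72). Trf too was high in Kupffer cells (7544 on average). Angiotensinogen and its receptor were not opposed, since Agtr1a read 441, 679 and 741 on the hepatocyte arrays and 781 and 698 on the 1-day HSC arrays, with overlapping arrays. Of 6 tested pairs with an HSC ligand and a hepatocyte receptor or other component of the ligand's pathway, 3 were opposed. Hgf read 87.4, 79.2 and 112 on the hepatocyte arrays and 1196 and 1479 on the 1-day HSC arrays, and its receptor Met read 617, 469.8 and 279 on the hepatocyte arrays and 149 and 107 on the 1-day HSC arrays (-3.01 and 1.31). Met was highest on hepatocyte replicate 1 and lowest on replicate 3. The other 2 were Rspo3 with its receptor Lgr4, and Bmp6 with Tfr2, which is no receptor of Bmp6 but acts with it upstream of hepcidin. Lgr4 read 687, 852 and 991 on the hepatocyte arrays and 433 and 307 on the 1-day HSC arrays, a difference of 1.03, and was not called without hepatocyte replicate 3 (0.92, adjusted p = 0.00047) or HSC replicate 2 (0.83, adjusted p = 0.0031). The 3 opposed pairs became 1 with the pooled median as the added value and 1 in the test against a difference of 1. RNA levels of a ligand and a receptor do not measure signalling between the cells.

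Genes of vitamin A metabolism, the specialty of quiescent stellate cells, were not mostly on the HSC side. Of 31 tested retinoid genes, 14 were called higher in hepatocytes and 3 higher in HSC (median 0.42), and the 3 became 2 without HSC replicate 2 and 1 in the test against a difference of 1. Rbp4, the plasma carrier of retinol, read 14487, 14132 and 13897 on the hepatocyte arrays and 1636 and 589 on the 1-day HSC arrays, a difference of 3.73 (SE 0.27, adjusted p = 1.5e-07), and Dhrs9, a retinol dehydrogenase, differed by 3.37. Bco1, which cleaves beta-carotene, was higher in HSC but measured in both groups, at 1596, 1436 and 1044 on the hepatocyte arrays and 3699.9 and 3927 on the 1-day HSC arrays, a difference of -1.45 (SE 0.15, adjusted p = 3.9e-06), and it was low in LSEC and Kupffer cells (129 and 125 on average). Rarb, a retinoic acid receptor that retinoic acid itself raises, read 162, 191 and 217 on the hepatocyte arrays and 671 and 619 on the 1-day HSC arrays, a difference of -1.42. The remaining gene was Lrat. Rdh10, a retinol dehydrogenase, and Stra6, the receptor for Rbp4, were not called (-0.67 and 0.15).

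Stress and division genes were mixed. Of 32 tested immediate early and stress genes, 7 were called higher in hepatocytes and 7 higher in HSC (median 0.22), and the HSC count became 4 in the test against a difference of 1. Atf3, a stress-induced factor, read 3971, 5837 and 4948 on the hepatocyte arrays and 805 and 1269.7 on the 1-day HSC arrays, a difference of 2.17, and Btg2 and Zfp36, which restrain division and destabilise mRNA, differed by 2.17 and 1.76. Higher in HSC were Ptgs2 and the transcription factors Egr2 (-2.51), Nr4a2 (-2.49) and Klf4 (-1.79), which are induced by stimulation. Of 20 tested antioxidant genes, 3 were called higher in hepatocytes and 4 higher in HSC (median -0.07), with Gpx1, the selenium-dependent peroxidase, at 2.87 and Nqo1, a quinone reductase, at -2.51. The share called was 35%, compared with 22.4% of all genes tested, and is not read as a result about the list. The counts were 2 and 3 without hepatocyte replicate 3, and 1 and 2 in the test against a difference of 1. Slc7a11, the cystine transporter, read 3202, 4281 and 573 on the hepatocyte arrays and 3599.7 and 3308 on the 1-day HSC arrays, and hepatocyte replicate 3 stood far below the other two.

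Of 25 tested cell cycle genes, 2 were called higher in hepatocytes and 4 higher in HSC (median -0.10). Over all genes tested 10.1% and 12.3% were called in these directions, so the counts lie near the background and are no result about the list. The 2 became 1 without hepatocyte replicate 1 or 3 or HSC replicate 1, with the replicate block, with the mean of all probe sets, with the pooled median as the added value and in the test against a difference of 1. Ccnd2, a cyclin of G1, read 336, 249 and 324 on the hepatocyte arrays and 6013 and 6193 on the 1-day HSC arrays, a difference of -4.01 (SE 0.12, adjusted p = 6.4e-11), and Ccnd1 differed by -1.81. Rrm2, a subunit of ribonucleotide reductase, was higher in hepatocytes, at 2571, 1839 and 2519 on the hepatocyte arrays and 357 and 238 on the 1-day HSC arrays, a difference of 2.66, and Mcm2, a part of the replicative helicase, was higher in HSC (-1.32). The remaining 2 calls did not hold over all sets of arrays. Cdkn1b (1.03) was not called without hepatocyte replicate 1 (0.97, adjusted p = 2.1e-05), hepatocyte replicate 3 (0.98, adjusted p = 2.6e-05) or HSC replicate 1 (0.94, adjusted p = 0.00017), and Pcna (-1.0) was not called without hepatocyte replicate 3 (-0.87, adjusted p = 0.00048) or HSC replicate 2 (-0.97, adjusted p = 0.0025). The HSC count was 7 with an added value of 16 and 2 in the test against a difference of 1.

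Of 14 tested clock genes, 4 were called higher in hepatocytes and none higher in HSC (median 0.52), and the 4 became 2 in the test against a difference of 1. They were the period gene Per1 (1.71), the repressors Nfil3 (1.60) and Ciart (1.32), and the output factor Dbp (1.26). The share called was 28.6%, compared with 22.4% in either direction and 10.1% higher in hepatocytes over all genes tested. With so few genes the count is not read as a result about the list. Per1 read 1980.1, 2367 and 2332 on the hepatocyte arrays and 681 and 561 on the 1-day HSC arrays. Arntl and Clock, the activating pair, were not called (-0.70 and -0.75). The time of day of collection is not given in the sources used here.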

How the data were processed

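The authors deposited linear intensities, 1 for each probe set, from Affymetrix mouse gene arrays of 13 samples. Expression Console and MAS5 5.0 appear in the submitters' processing notes with no role, so background correction and normalization are not given in the sources used here. Values ran from 10.6 to 28854, and array medians from 216 to 233. Of 25194 probe sets, 21181 had 1 gene symbol, 1379 several and 2634 none, and 21097 matched RefSeq. The highest-mean probe set stood for each of 19537 genes, and genes above the pooled median in at least 2 of the 11 arrays fitted were tested. limma 3.58.1 in R 4.3.3 fitted log2(intensity + 83) on the hepatocyte, Kupffer, LSEC and 1-day HSC arrays, so all 4 groups share 1 estimate of the spread (7 residual degrees of freedom), two-sided, with Benjamini-Hochberg adjustment. On simulated data with 200 changed genes it recovered 197 at a log2 difference of 1.5 and 200 at 3. The 83 is the pooled 20th percentile. Gene lists and pairs were chosen with earlier results of these data known. Named genes are the 12 widest calls each way, fixed anchors, the 4 widest calls each way and 2 uncalled members of each list, and all pair members. Promoters came from RefSeq, GRCm38.p6. Genes sharing a probe set with another were not analysed here. Alternatives were 11 other settings and leaving out each of the 5 arrays.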

Additional observations from a re-analysis of the deposited data

How the results depend on the processing

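The 16 alternatives left the counts of called genes within 1.5 times the reported ones, with 1 exception. That was the count higher in 1-day HSC in the test against a log2 difference of 1 (limma's treat), which was 826. The same test called 853 genes higher in hepatocytes, within that limit. Using the pooled median as the added value gave 980 and 1053, and an added value of 16 gave 1386 and 1776. Quantile normalization gave 1313 and 1356, with 1222 and 1343 of the reported calls kept. Leaving out 1 array gave 1211 to 1257 genes higher in hepatocytes and 1392 to 1595 higher in HSC. The median over all genes lay between -0.10 and 0.04. With the replicate number as a block the counts were 1217 and 1428. The deviations of same-numbered arrays correlated at -0.11 and 0.03 across genes. Values this few, with 2 arrays of 1-day HSC, cannot decide whether same-numbered arrays share an animal or preparation.

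Of 222 named genes that were called, 187 kept their call under all 16 alternatives and 211 under all 5 sets with 1 array left out. The 35 that lost it somewhere had reported differences of 1.00 to 1.81 in size, and none changed direction. The added value of 16 brought 29 further named genes past the threshold, so the choice of that value decides many calls near it. Depth is unknown for arrays of this kind, and low intensities lie close to background, which limits what can be said of weakly detected genes.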

Other observations

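Later HSC arrays, which entered no test, read on the same side of hepatocytes as the 1-day arrays for most called genes. Both the 7-day and the 14-day array lay below every hepatocyte array for 1150 of the 1225 genes called higher in hepatocytes, and above every hepatocyte array for 1292 of the 1481 called higher in HSC. Within the 1481, both later arrays were below both 1-day arrays for 716 genes and above them for 439. The 1481 were called through high readings on the same 1-day arrays, which favours later readings below those. Counts over all genes tested were not made, so these numbers are no result about culture time. Reln, Robo2, Serpinb2 and S1pr3 were among those below, at 277, 352, 394 and 233 on the 14-day array. Col1a1, Acta2, Cdh11 and Timp1 were among those above, at 11780.1, 14597, 2858 and 8138. These genes were picked after their values were seen, and each later time is a single array.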
